A study of Mus musculus with 60 samples.

Results

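Collagen chain genes are the genes of the polypeptide chains that wind together into the collagen triple helix. They were taken as every gene whose symbol reads Col, a type number, the letter a and a chain number, on probe sets that name 1 gene only. The rule gave 42 genes of the 18193 that a probe set names alone, with 82 probe sets in all. For each gene the probe set with the highest mean over the 60 arrays was used, with no filter on its level, and 15 of the genes had a single probe set. The lymphomas came from Em-myc transgenic mice, in which an immunoglobulin enhancer drives the c-myc oncogene in B lineage cells. They were 25 early lymphomas (age at onset 32 to 76 days, median 65) and 25 late lymphomas (253 to 649 days, median 398). The normal tissues came from Wildtype mice and were 6 young lymph nodes (38 to 73 days), 3 old lymph nodes (387, 394 and 438 days) and 1 spleen (304 days). The labels give snap-frozen tissue and total RNA for every sample, and give no strain, no site of the tumours or nodes, and no statement on which arrays share an animal or a hybridisation day. P-values therefore measure the spread between these samples. Each sample was hybridised to 1 whole-genome mouse expression array, and levels below are log2 of the deposited intensity plus a constant of 15.7, so that 1 unit is about a 2-fold difference at high intensity and less than that at low intensity.

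Collagens are the main structural proteins of the extracellular matrix. The fibrillar types form the banded fibres of tissues, type IV forms the sheet of basement membranes under vessels and epithelia, and type VI forms beaded microfilaments around cells. The chains called FACIT sit on the surface of fibrils, the transmembrane types are anchored in the plasma membrane, and the multiplexins carry sugar side chains at vascular basement membranes. In lymph nodes reticular fibroblasts lay down a network of collagen fibres that lymphocytes move along, while lymphocytes themselves are not known as main producers of these chains. The samples were bulk tissue, so that fewer cells of a type and less RNA per cell cannot be told apart.

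The 250 bases before the annotated start of 4 members are printed because these genes carry the main values below. Col1a2 and Col3a1 encode chains of the main fibrils, Col6a1 had the lowest adjusted p of the members in early lymphomas against young nodes, and Col20a1 was the member called between early and late lymphomas. They are from RefSeq on build GRCm38.p6, at chr6:4505368-4505617 on the plus strand for Col1a2, chr1:45311288-45311537 on the plus strand for Col3a1, chr10:76726045-76726294 on the minus strand for Col6a1 and chr2:180986285-180986534 on the plus strand for Col20a1. Each is written 5′ to 3′ on the gene's strand, and capitals mark any of 3 promoter motifs searched on both strands. These were the letters TATAAA, where the basal transcription machinery can bind, the letters CCAAT, a site of the factor NF-Y, and the letters GGGCGG, a site of the factor Sp1. A match is a description of the letters and not a bound site.
Col1a2: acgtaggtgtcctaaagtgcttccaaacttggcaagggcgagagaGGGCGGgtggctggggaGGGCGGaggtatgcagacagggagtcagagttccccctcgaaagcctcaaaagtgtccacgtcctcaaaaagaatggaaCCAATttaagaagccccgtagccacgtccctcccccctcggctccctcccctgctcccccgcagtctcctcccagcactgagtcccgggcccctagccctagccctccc
Col3a1: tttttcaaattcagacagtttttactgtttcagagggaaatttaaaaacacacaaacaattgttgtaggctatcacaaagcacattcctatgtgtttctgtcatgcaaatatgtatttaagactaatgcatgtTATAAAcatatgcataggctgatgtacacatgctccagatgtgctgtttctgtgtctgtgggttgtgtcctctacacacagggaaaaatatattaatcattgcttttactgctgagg
Col6a1: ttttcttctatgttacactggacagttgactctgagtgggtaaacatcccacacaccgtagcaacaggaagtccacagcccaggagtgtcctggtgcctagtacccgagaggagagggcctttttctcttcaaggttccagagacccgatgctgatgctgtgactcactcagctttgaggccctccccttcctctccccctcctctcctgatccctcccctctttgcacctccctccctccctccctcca
Col20a1: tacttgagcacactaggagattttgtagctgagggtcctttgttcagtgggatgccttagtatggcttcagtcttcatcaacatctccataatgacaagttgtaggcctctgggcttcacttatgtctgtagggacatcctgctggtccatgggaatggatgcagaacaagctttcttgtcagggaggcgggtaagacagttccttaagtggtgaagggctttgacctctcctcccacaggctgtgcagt

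In the Col1a2 window GGGCGG began 205 and 188 bases before the start and CCAAT 109 bases before it. In the Col3a1 window TATAAA began 117 bases before the start, and the Col6a1 and Col20a1 windows held none of the 3. Windows were found for 33 members, 36 windows in all. GGGCGG was in 21 of these (58.3%, against 32.7% of all 32851 windows), CCAAT in 13 (36.1%, against 33.8%) and TATAAA in 5 (13.9%, against 12.4%). Col12a1, Col14a1, Col1a1, Col22a1, Col26a1, Col2a1, Col4a3, Col5a2 and Col9a3 were not matched to a window. Several members are next to each other in the gene order: Col3a1 and Col5a2, Col9a1 and Col19a1, and Col4a4 and Col4a3 on chromosome 1, Col6a2 and Col6a1 on chromosome 10, Col4a1 and Col4a2 on chromosome 8, Col6a5 and Col6a4 on chromosome 9, and Col4a6 and Col4a5 on chromosome X. Col4a1 (minus strand, start at 11312826) and Col4a2 (plus strand, start at 11312805) lie head to head, and their annotated starts overlap by 22 bases.

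The samples bore out their labels for the transgene: Myc was 12.28 to 14.27 in the 50 lymphomas and 9.81 to 10.66 in the 10 normal tissues. The B cell receptor gene Cd79a was 13.21 to 13.96 in the nodes. It was 7.01 to 14.05 in early lymphomas (median 13.91) and 7.52 to 14.18 in late lymphomas (median 12.64). The value of 7.01 was that of early lymphoma 6, and the next lowest early tumour was at 13.41. The defining B lineage gene was thus low in 1 early tumour and in several late ones. The median intensity of an array was 183 to 198 in young nodes and 184 to 195 in old nodes, and lower in many lymphomas (124 to 206 early, 122 to 184 late). Gland genes varied widely. The log2 of the summed intensity of the pancreas genes was 8.06 to 16.23 in young nodes, 7.52 to 8.71 in old nodes, 7.44 to 14.67 in early and 7.59 to 15.38 in late lymphomas, and that of the salivary genes was 12.38 to 16.06 in young nodes, 9.21 to 15.48 in old nodes, 6.40 to 15.77 in early and 6.26 to 16.09 in late lymphomas. The Gapdh 3′ to 5′ signal ratio, a measure of RNA integrity, was -0.51 to -0.38 in young nodes and -0.33 to -0.30 in old nodes on the log2 scale, with no overlap. The same ratio for actin was 0.17 to 0.30 in young nodes and 0.22 to 0.31 in old nodes, so these ranges overlapped.

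Of the 42 collagen genes, 27 had a mean above the median of the whole table (157, or 7.43 on the log2 scale) in at least 1 of the 5 groups. These included the chains of types I, III and V, the type VI chains other than Col6a5, and Col4a1, Col4a2, Col14a1, Col15a1 and Col18a1. The other 15 were at or under it in every group mean, among them the cartilage chains Col2a1, Col9a2 and Col10a1 and the transmembrane chains Col13a1 and Col17a1, and their values lie where the array separates levels poorly. On 10 arrays or more, 28 members exceeded the median level of the array they were read on.

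**Figure D1:**
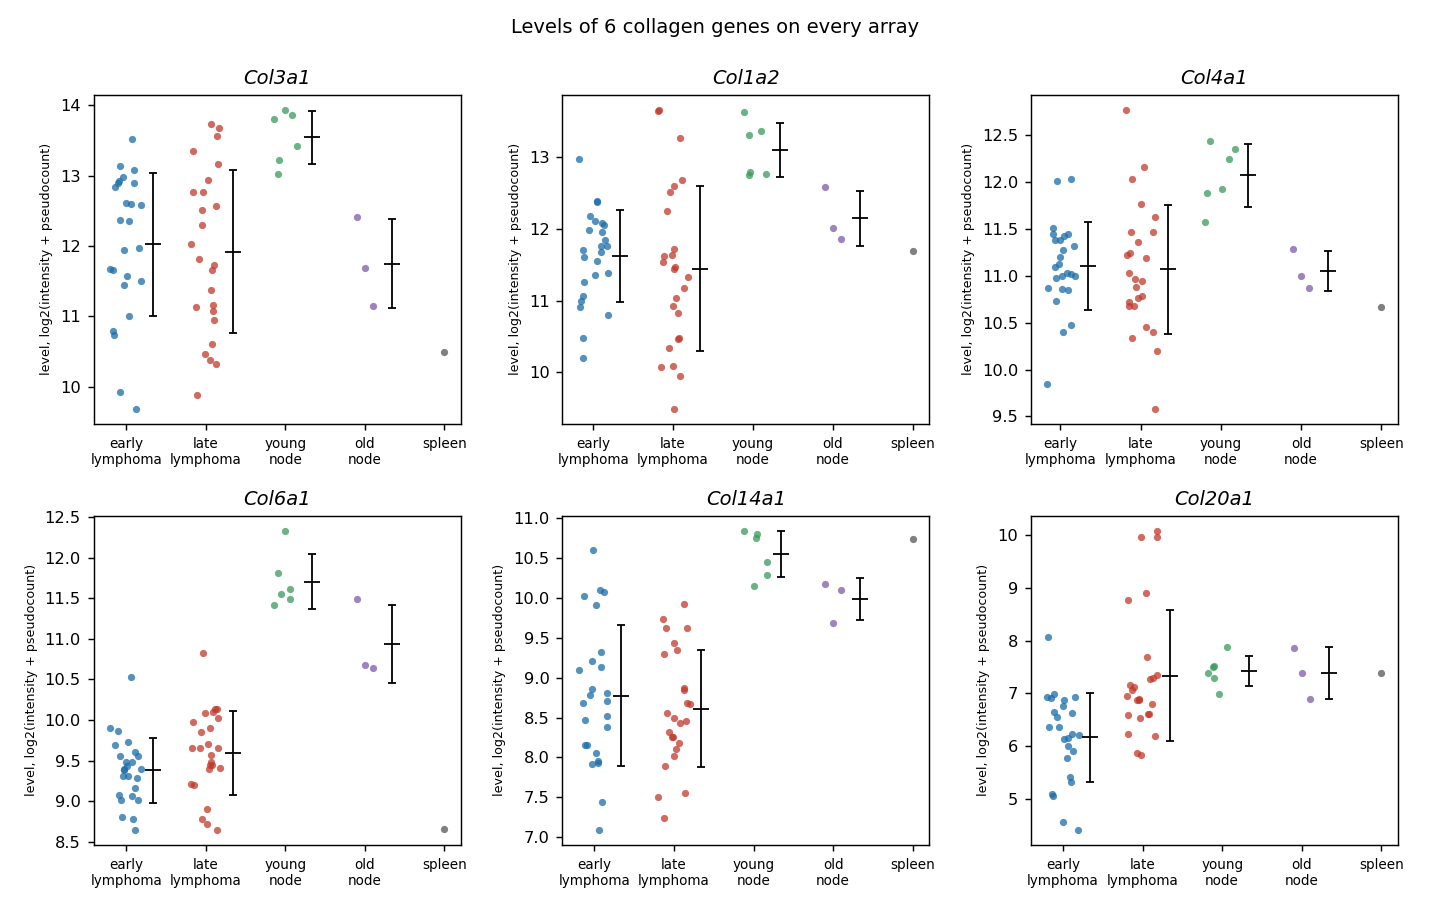
Levels of Col3a1, Col1a2, Col4a1, Col6a1, Col14a1 and Col20a1 on every array, with the vertical axis as log2(intensity + 15.7), on a scale of its own for each gene, and 1 column of points for each of the 5 groups; each point is 1 array, and the bar beside it is the mean with the SD (none for the single spleen). Early lymphomas lie below all young nodes for Col6a1. The ranges of early and late lymphomas overlap for every gene shown. Late lymphomas cover a wider range for Col1a2 (9.49 to 13.66, against 10.20 to 12.98) and Col4a1 (9.58 to 12.77, against 9.85 to 12.03). For Col14a1 they cover a narrower one (7.24 to 9.93, against 7.09 to 10.61). Col20a1 reaches 8.07 in early and 10.09 in late lymphomas.

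Early lymphomas were set against young lymph nodes, the normal tissue nearest to them in age. Collagen transcripts were lower in the tumours: 21 of the 42 genes fell and 0 rose (limma, Benjamini-Hochberg adjusted p under 0.05 over 45037 probe sets), where 27.4% of all probe sets were called lower. The median change of the members was -0.62, against -0.09 over all probe sets, and 37 of the 42 had a change below 0. The early lymphomas did not overlap the young nodes for 5 members, Col6a1, Col6a2, Col6a3, Col15a1 and Col16a1, where 8.34% of all probe sets were lower without overlap. By class the falls covered 4 of 5 type VI genes, 6 of 11 fibrillar genes, 3 of 6 type IV genes, 4 of 9 FACIT genes, 2 of 4 transmembrane genes and both multiplexins. None of the 3 short-chain genes (Col8a1, Col8a2, Col10a1), nor Col7a1 and Col26a1, passed the test.

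The type VI genes had the largest median change of the classes, -1.59. Col6a1, which encodes a short arm chain of the type VI trimer, was 8.65 to 10.53 in early lymphomas (median 9.39) and 11.42 to 12.33 in young nodes (median 11.59). Every early lymphoma was below every young node, and the difference was 5.00-fold (log2 change -2.32, SE 0.17, n = 25 and 6, adjusted p = 8.2e-14 in limma). Its partner Col6a2 was 9.58 to 10.47 (median 10.15) against 11.25 to 12.47 (median 11.59), again with no overlap, and fell by 1.59 on the log2 scale (SE 0.13, adjusted p = 1.5e-12 in limma). Col6a3, the long chain that completes the trimer, was 8.34 to 9.67 (median 9.14) against 10.13 to 11.27 (median 10.69) and fell by 1.58 (SE 0.16, adjusted p = 2.2e-10 in limma). Thus all 3 chains of the classical trimer were lower in all 25 early lymphomas. Col6a4, a chain that can take the place of Col6a3, had the largest change, 6.06-fold lower (-2.60, SE 0.44, adjusted p = 7.6e-06 in limma). It was 4.60 to 9.37 in early lymphomas (median 6.84) and 9.05 to 9.84 in young nodes, and early lymphoma 28 at 9.37 reached into the range of the nodes. Col6a5, another such chain, was under the table median in both groups and did not pass (-0.18, SE 0.23).

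Of the fibrillar genes, the chains of type I, III and V fell. Col1a1 and Col1a2 encode the chains of type I collagen, the bulk of most fibres. Col1a2 was 10.20 to 12.98 in early lymphomas (median 11.70) and 12.75 to 13.63 in young nodes (median 13.05), 2.80-fold lower (-1.48, SE 0.25, adjusted p = 7.5e-06 in limma). Col1a1 was 8.48 to 11.74 (median 10.23) against 10.76 to 12.55 (median 11.40), and fell by 1.26 (SE 0.32, adjusted p = 0.0012 in limma). The highest early lymphoma for Col1a2, number 21 at 12.98, was above 3 of the 6 young nodes, so both groups overlapped. Col3a1, the type III chain of reticular fibres, was 9.68 to 13.52 (median 12.35) against 13.03 to 13.94 (median 13.61). It fell by 1.52 (SE 0.39, adjusted p = 0.0016 in limma), with a spread among the tumours of 1.02 (SD, n = 25) against 0.38 among the nodes. The type V chains, which regulate the width of fibrils, fell together: Col5a2 by 1.66 (SE 0.22, adjusted p = 9.6e-08 in limma), Col5a3 by 0.80 and Col5a1 by 0.75. The other 5 fibrillar genes, Col2a1, Col11a1, Col11a2, Col24a1 and Col27a1, had changes of -0.44 to -0.12 and did not pass.

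Of type IV, the chains found in nearly all basement membranes, Col4a1 and Col4a2, fell. Col4a2 was 8.97 to 11.17 in early lymphomas (median 9.90) and 10.72 to 11.46 in young nodes (-1.20, SE 0.20, adjusted p = 5.6e-06 in limma). Col4a1 was 9.85 to 12.03 (median 11.10) against 11.57 to 12.44 (-0.96, SE 0.19, adjusted p = 6.8e-05 in limma). For both genes some tumours reached the lower nodes. Col4a5, a chain of specialised basement membranes, fell by 0.73, and Col4a3, Col4a4 and Col4a6 had changes of -0.51 to -0.26 and did not pass. The multiplexins Col15a1 and Col18a1, the second of which is the parent protein of the fragment endostatin, fell by 0.98 and 0.86. Col15a1 was 7.29 to 9.24 in early lymphomas and 9.27 to 9.62 in young nodes, so the ranges only just did not overlap.

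Among the FACIT genes Col14a1, whose chain binds fibrils and decorin, was 7.09 to 10.61 in early lymphomas (median 8.71) and 10.16 to 10.85 in young nodes, 3.42-fold lower (-1.77, SE 0.34, adjusted p = 4.9e-05 in limma). Early lymphoma 24, at 10.61, lay within the range of the nodes. Col16a1 was 6.75 to 8.51 against 8.64 to 9.17 with no overlap, and fell by 1.28 (SE 0.21, adjusted p = 2.8e-06 in limma). Col20a1 fell by 1.25 and Col12a1 by 0.74, and Col9a1, Col9a2, Col9a3, Col19a1 and Col22a1 had changes of -0.12 to 0.28. The transmembrane gene Col23a1 was 4.70 to 8.07 against 6.99 to 8.34 and fell by 1.34 (SE 0.34, adjusted p = 0.0012 in limma). Col17a1, known from the anchoring of skin epithelium, fell by 0.73 at levels under the table median in both groups, and Col13a1 and Col25a1 did not pass.

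The called members had 23 further probe sets, of which 12, from 11 genes, passed the filter on low values; all 12 were called lower too. Scaling moved the split by direction. Quantile normalization gave 20 lower and 4 higher, and centring each array on its median gave 19 lower and 4 higher. The 4 were Col9a1, Col9a3, Col19a1 and Col22a1. Both scalings raised the median change of all probe sets, from -0.09 to 0.11 and 0.26, and these 4 had changes of 0.06 to 0.28 on the deposited scale. The falls of the type I, III, IV, V and VI chains named above were called under both. Other alternatives lost some of them. Without young nodes 1, 2 and 3 together, Col1a1, Col3a1, Col4a5 and Col12a1 were not called. With all 10 normal tissues as the control, Col3a1, Col5a3 and Col12a1 were not called. The calls over all probe sets were 19586 in the main fit, 15122 without these 3 nodes and 22271 with all 10 tissues.

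**Figure D2:**
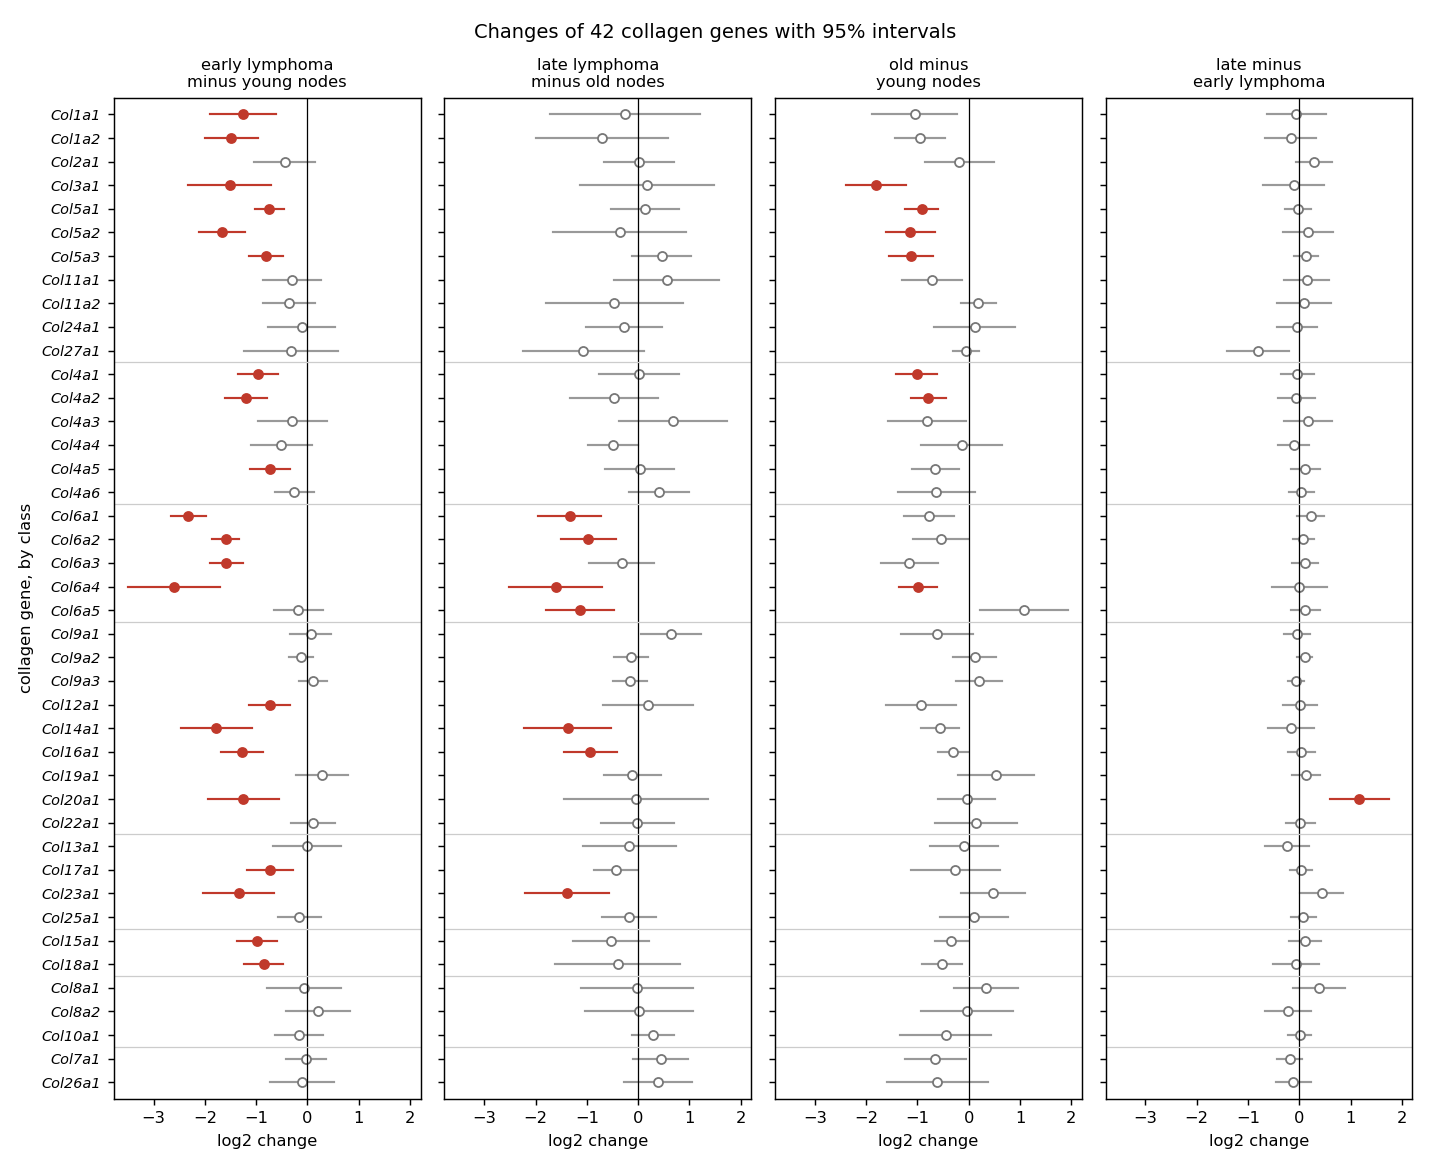
Log2 change of each collagen gene in early lymphomas against young nodes, late lymphomas against old nodes, old against young nodes and late against early lymphomas, with the 95% interval as a line filled red points where the adjusted p was under 0.05 and grey lines between classes. Col6a1, Col6a2, Col6a4, Col14a1, Col16a1 and Col23a1 are called lower in both comparisons of lymphomas with nodes. Nearly all changes of late against early lymphomas lie near 0.

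Late lymphomas were set against old lymph nodes in the same way. 7 of the 42 collagen genes fell and 0 rose, where 11.2% of all probe sets were called lower, so the members' share was not far from that of the array. The members' median change was -0.16 against -0.09 over all probe sets. Only the 3 old nodes carry the normal level here, which widens the intervals of every gene.

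The falls were in 4 of 5 type VI genes, 2 of 9 FACIT genes and 1 of 4 transmembrane genes. Col6a1 was 8.65 to 10.83 in late lymphomas (median 9.66) and 11.49, 10.68 and 10.64 in old nodes 8, 9 and 10, 2.52-fold lower (-1.34, SE 0.30, n = 25 and 3, adjusted p = 0.0019 in limma). Col6a2 was 9.17 to 11.19 (median 10.25) against 11.68, 10.92 and 10.83, and fell by 0.97 (SE 0.26, adjusted p = 0.0085 in limma). For both genes node 8 was the highest of the nodes and the tumours overlapped the other pair. Col6a4 was 4.81 to 7.88 against 8.42, 8.16 and 8.25, below all 3 nodes in every tumour (-1.61, SE 0.44, adjusted p = 0.0092 in limma). Col6a5 fell by 1.14 (SE 0.32, adjusted p = 0.012 in limma) at levels under the table median. Col6a3 did not pass, at 8.25 to 10.66 against 9.52, 9.95 and 9.20 (-0.31, SE 0.31, 95% interval -0.95 to 0.32).

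Col14a1 was 7.24 to 9.93 in late lymphomas and 10.18, 9.69 and 10.10 in the old nodes, and fell by 1.38 (SE 0.41, adjusted p = 0.017 in limma). Col16a1 was 6.86 to 8.51 against 8.45, 8.85 and 8.61 (-0.93, SE 0.26, adjusted p = 0.0094 in limma). Col23a1 was 5.46 to 8.09 against 8.17, 8.57 and 8.25, below all nodes (-1.38, SE 0.40, adjusted p = 0.014 in limma). It and Col6a4 were the 2 members lower without overlap, where 4.92% of all probe sets were. None of the 11 fibrillar and 6 type IV genes passed. Col1a2 differed by -0.70 (95% interval -1.99 to 0.59), Col3a1 by 0.17 (-1.14 to 1.48) and Col4a1 by 0.02 (-0.76 to 0.80). Whether these changes differ from those of the early lymphomas is asked by the interaction below, in which 0 of the 42 members passed. The called members had 3 further probe sets above the filter, all with a change below 0, and 2 of them were called. Without node 8 the count of 7 was 1, Col16a1, and it was 5 without node 9 or node 10. With all 10 normal tissues as the control, young nodes and spleen included, it was 14. This added Col1a2, Col5a2, Col4a2, Col6a3 and Col15a1 among others. With the spleen added to the old nodes, Col6a1 and Col6a2 were no longer called. Scaling moved the calls here too. Quantile normalization added Col9a1 and Col7a1. Centring each array on its median added Col9a1, Col10a1 and Col7a1 and lost Col6a2 and Col16a1. On the deposited scale the means of Col9a1, Col10a1 and Col7a1 were 8.15, 4.93 and 7.86 in late lymphomas. In old nodes they were lower, at 7.51, 4.64 and 7.42. The calls over all 45037 probe sets, in either direction, moved as well. They were 8480 in the main fit, 4972, 5303 and 5138 without node 8, 9 or 10, and 17351 with all 10 normal tissues.

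The age contrast within normal nodes shares its young nodes with the early lymphoma comparison and its old nodes with the late one. Collagen genes were lower in the old nodes: 7 of 42 fell and 0 rose, where 0.284% of all probe sets were called lower. A further 2 were lower without overlap but did not pass the adjusted test, 9 in all, where 3.08% of all probe sets were lower without overlap. The members' median change was -0.53 against 0.01 over all probe sets, and 32 of 42 changes were below 0.

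Col3a1 was 13.94, 13.80, 13.87, 13.23, 13.42 and 13.03 in young nodes 1 to 6 and 12.41, 11.68 and 11.15 in old nodes 8, 9 and 10. The lowest young node was above the highest old node, and the difference was 3.48-fold (-1.80, SE 0.27, n = 3 and 6, adjusted p = 0.012 in limma). Its neighbour Col5a2 was 11.00, 10.59, 10.56, 9.98, 10.31 and 10.13 in the young nodes and 9.74, 9.10 and 9.04 in the old (-1.14, SE 0.22, adjusted p = 0.042 in limma). The other type V chains fell too, Col5a3 by 1.13 (adjusted p = 0.027 in limma) and Col5a1 by 0.92 (adjusted p = 0.021 in limma).

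The head-to-head type IV pair also fell. Col4a1 was 12.44, 12.25, 12.36, 11.92, 11.57 and 11.88 in the young nodes and 11.29, 10.99 and 10.87 in the old (-1.02, SE 0.18, adjusted p = 0.029 in limma). Col4a2 was 11.46, 11.33, 11.28, 10.98, 10.72 and 10.99 against 10.52, 10.31 and 10.19 (-0.79, SE 0.15, adjusted p = 0.045 in limma). Col6a4 was 9.26, 9.35, 9.05, 9.84, 9.05 and 9.07 against 8.42, 8.16 and 8.25 (-0.99, SE 0.17, adjusted p = 0.028 in limma). In all 3 genes the groups did not overlap. The 7 called members had 6 further probe sets above the filter on low values, which all had a change below 0, and 2 of them were called.

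Type I collagen did not pass on the probe sets used. Col1a2 was 13.63, 13.37, 13.31, 12.75, 12.77 and 12.80 in the young nodes and 12.58, 12.02 and 11.85 in the old, with no overlap (-0.95, SE 0.22, adjusted p = 0.088 in limma). Col1a1 was 12.55, 11.87, 12.02, 10.92, 10.94 and 10.76 against 10.95, 10.39 and 10.01, so old node 8 was above 3 young nodes (-1.06, SE 0.38, adjusted p = 0.26 in limma). A second probe set of each was called lower, that of Col1a1 (-1.88, adjusted p = 0.036 in limma) and that of Col1a2 (-1.95, adjusted p = 0.045 in limma). Col6a3 was 11.27, 10.98, 11.10, 10.40, 10.13 and 10.40 against 9.52, 9.95 and 9.20, without overlap (-1.16, SE 0.25, adjusted p = 0.072 in limma). The short type VI chains differed less, Col6a1 by -0.77 and Col6a2 by -0.55, and did not pass.

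Young nodes 1, 2 and 3, all aged 38 days, held the 3 highest values of Col3a1, Col1a1, Col1a2, Col5a2, Col4a1, Col4a2 and Col6a3. Young nodes 1 and 3 also had the highest level of the pancreas gene Ctrb1, 14.25 and 14.67, with 9.95 in node 2. Without these 3 nodes 0 members were called and the change of Col3a1 was -1.48 (adjusted p = 0.15 in limma), and with the pancreas and salivary levels as covariates 0 were called and it was -1.56 (adjusted p = 0.15 in limma). With the RNA ratios as covariates, or in 1 fit over all groups, 0 were called as well, at -1.83 and -1.80 for Col3a1, and in these 4 limma fits 10 to 14 members had an unadjusted p under 0.05. The calls over all 45037 probe sets dropped as well, from 324 to 30 without young nodes 1, 2 and 3, 38 with the gland covariates, 0 with the RNA ratios and 28 in 1 fit over all groups. The members' count was 0 without old node 10 and 2 to 6 without any 1 young node, and with old node 10 left out 16 members had an unadjusted p under 0.05.

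**Figure D3:**
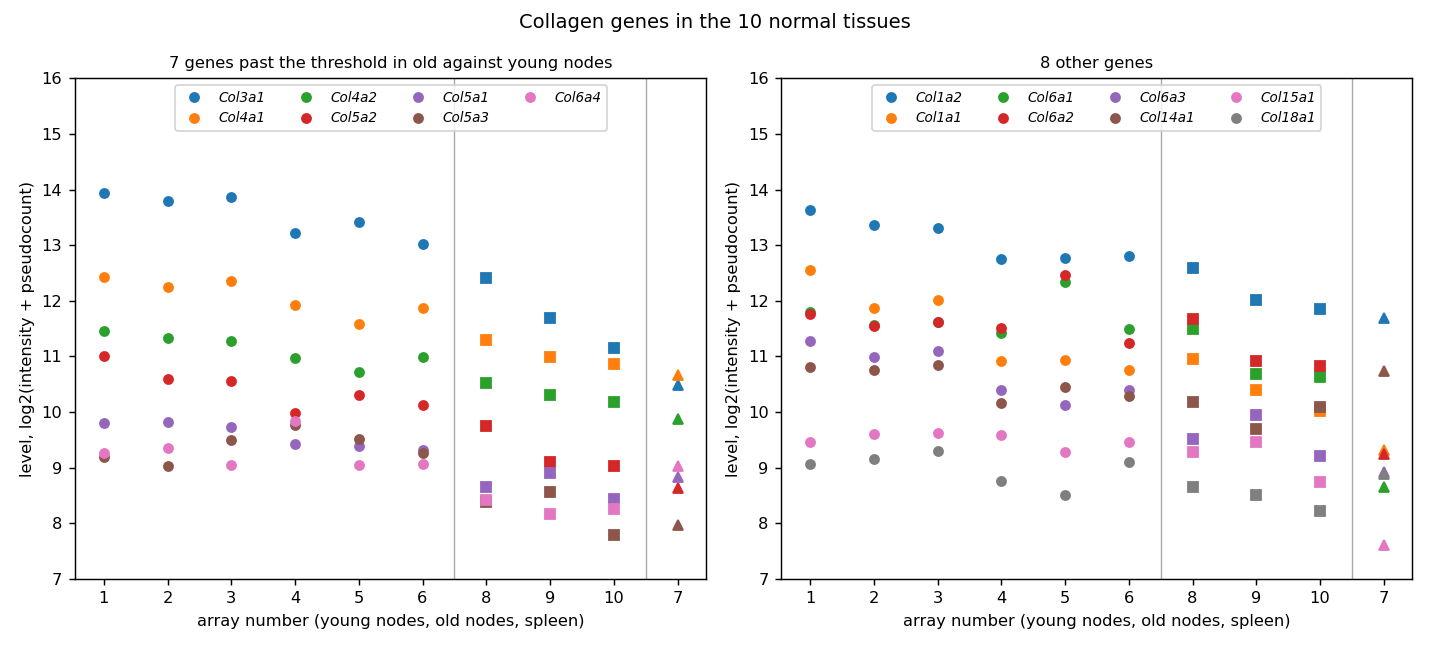
Levels of collagen genes in each normal sample, with the 6 young nodes, the 3 old nodes and the spleen along the horizontal axis and log2(intensity + 15.7) on the vertical axis; points of 1 colour in a panel are 1 gene, and circles, squares and triangles are young nodes, old nodes and spleen. Col3a1 lies between 13.03 and 13.94 in the young nodes and between 11.15 and 12.41 in the old nodes, and at 10.49 in the spleen.

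The single spleen has no replicate and is given by its values. It was below all 9 nodes for 11 members (26.2%, against 13.6% of all probe sets): Col1a1, Col1a2, Col3a1, Col5a2, Col24a1, Col4a1, Col4a2, Col6a1, Col6a2, Col6a3 and Col15a1. Col6a1 was 8.66 in the spleen against at least 10.64 in the nodes, Col15a1 was 7.61 against at least 8.74, and Col3a1 was 10.49 against at least 11.15. Col14a1 at 10.74, Col6a4 at 9.02 and Col18a1 at 8.89 were within the range of the young nodes or just under it.

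Whether the change from early to late lymphomas differed from that between young and old nodes was tested as an interaction. 0 of the 42 members passed, where 0.0333% of all probe sets did. At an unadjusted p under 0.05, 12 did, 11 with a higher change in the lymphomas. The largest were Col3a1 (1.69, SE 0.76, adjusted p = 0.88 in limma), Col5a2 (1.30, SE 0.63, adjusted p = 0.90 in limma) and Col6a3 (1.27, SE 0.33, adjusted p = 0.23 in limma), and on the other side Col6a5 (-0.96, SE 0.39).

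Early and late lymphomas, the comparison for which the series was made, differed little in collagen genes. 1 of the 42, Col20a1, was called, where 12.7% of all probe sets were called in either direction. The members' median change was 0.03, as was that of all probe sets. At an unadjusted p under 0.05 there were 3. For 40 of the 42 genes the 95% interval of the change lay within 1 log2 unit of 0 on both sides, the exceptions being Col20a1 and Col27a1. Col1a2 differed by -0.17 (95% interval -0.68 to 0.33), Col3a1 by -0.11 (-0.70 to 0.48), Col4a1 by -0.04 (-0.36 to 0.28) and Col6a1 by 0.22 (-0.04 to 0.47).

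Col20a1 encodes a FACIT chain whose role is little known. It was 4.41 to 8.07 in early lymphomas (median 6.24) and 5.83 to 10.09 in late lymphomas (median 6.95), 2.25-fold higher (1.17, SE 0.29, adjusted p = 0.0058 in limma). Both means were under the table median, and the gene is named here after its values were seen. In 5 late lymphomas it exceeded every early one: 120 at 9.96, 125 at 10.09, 129 at 9.98, 137 at 8.90 and 138 at 8.78. A second probe set put the same 5 tumours highest, at 8.32 to 9.55 with a late median of 6.22. Another probe set put 4 of them highest and 138 at the late median of 5.94. On the remaining one, 120, 125 and 129 were highest but 137 and 138 were under the late median of 5.32, and its change of -0.20 did not pass. The other 3 probe sets were called higher, and only the one used passed the filter on low values. Prdm1, the regulator of plasma cell formation, was 11.32 to 11.93 in these 5, and 6.93 to 8.59 in early lymphomas. The part of plasma cell genes in the difference was not tested. The call held in 50 of 50 fits that left out 1 lymphoma (change 1.05 to 1.25). Each of these fits kept most of the 5 tumours, so they cannot show whether the call depends on those 5. With the RNA ratios as covariates the call was lost (0.60, adjusted p = 0.20 in limma).

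Col27a1, a fibrillar chain known from cartilage, was 7.86 to 11.58 in early lymphomas (median 8.76) and 6.34 to 10.48 in late lymphomas (median 8.34). The change of -0.81 (SE 0.30, adjusted p = 0.065 in limma) did not pass, and it was called lower with quantile normalization, with centring on the median, with the filter on low values and in 1 fit over all groups. In early lymphomas 6 tumours, numbers 1, 3, 5, 11, 14 and 28, were at 10.75 to 11.58. Within late lymphomas, where the age at onset varied most, 0 members followed it (slope per doubling of age, 0.00888% of all probe sets called). The members' median slope was 0.37 per doubling, against 0.07 over all probe sets, and 7 of 42 slopes were below 0. The members with an unadjusted p under 0.05 were Col12a1 (0.97 per doubling, SE 0.34), Col6a3 (0.73, SE 0.26) and Col7a1 (0.49, SE 0.23), each with an adjusted p of 0.19 to 0.30 in limma.

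**Figure D4:**
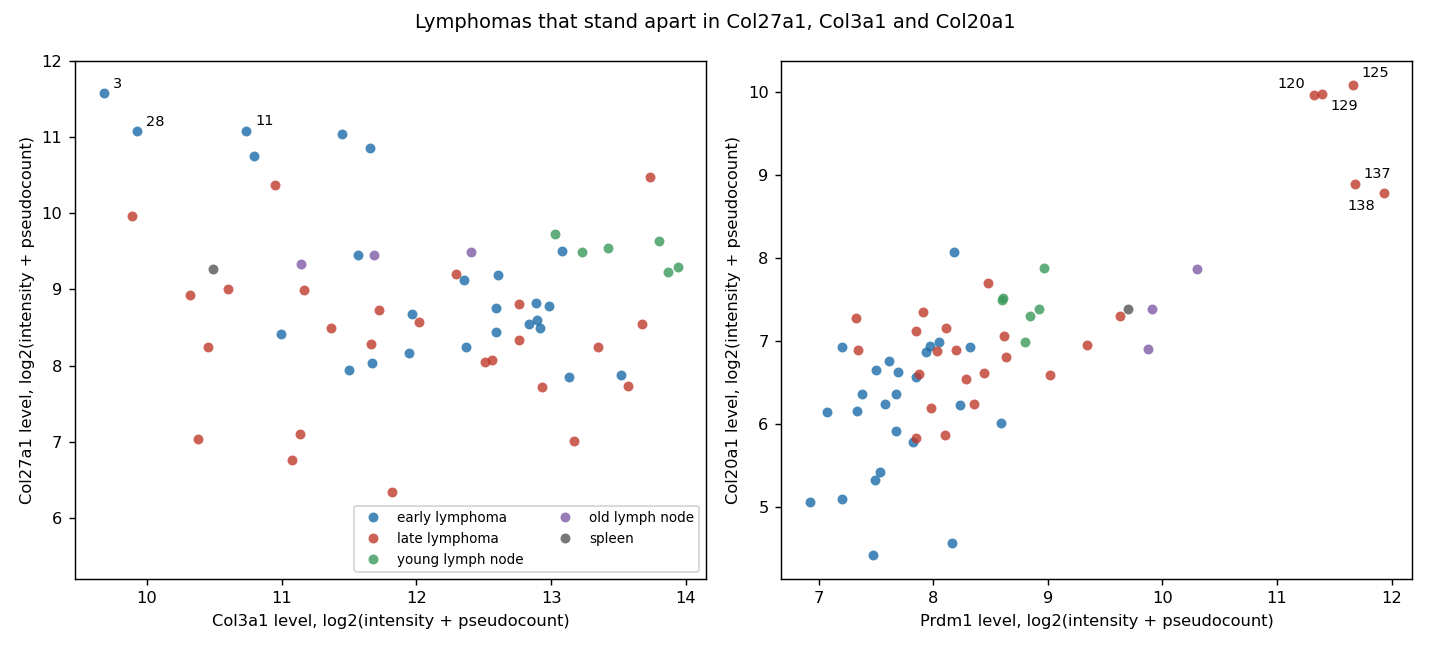
Each point is 1 array, coloured by group: on the left Col27a1 against Col3a1, on the right Col20a1 against Prdm1, all as log2(intensity + 15.7). Early lymphomas 3, 11 and 28 combine high Col27a1 with low Col3a1, and late lymphomas 120, 125, 129, 137 and 138 are high in both Col20a1 and Prdm1.

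The lymphomas differed among themselves by more than the group means did. The spread of a gene (SD) was larger in late lymphomas for 25 of 42 members (59.5%, against 68.4% of all probe sets), with a median SD of 0.50 in early and 0.60 in late tumours. Col3a1 and Col1a2 were highest together in late lymphomas 119, 120 and 138, at 13.74, 13.67 and 13.57 for Col3a1 and at 13.26, 13.66 and 13.64 for Col1a2. Late lymphoma 127 was the lowest for both, at 9.89 and 9.49. Single tumours stood far from the rest in other chains. Late lymphoma 125 had Col18a1 at 11.96, where the next late tumour was at 9.63, and the second probe set of the gene also put it highest, at 11.01 against a late median of 7.70. Late lymphoma 130 had Col11a1 at 9.54, where the next was at 8.12, and 8.37 on the second probe set against a median of 4.58.

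Chains varied together across tumours, both those that pair in 1 protein and Col1a2 with Col3a1, which are chains of types I and III. Of 16 relations computed, with permutation p-values adjusted over the 16, Col1a1 and Col1a2 had r = 0.87 in early lymphomas (n = 25, rho = 0.83) and r = 0.97 in late lymphomas (n = 25, rho = 0.97). Col4a1 and Col4a2 had r = 0.89 (rho = 0.82) and r = 0.97 (rho = 0.95). For these 4 relations the permutation p of r was 1e-05, the smallest that the resamples can give, the adjusted p was 2e-05, and r was at least 0.79 without the 2 tumours farthest from the median. Col1a2 and Col3a1 had r = 0.57 in early lymphomas (rho = 0.71, permutation p = 0.0031, adjusted 0.0038, r = 0.47 without the 2 farthest) and r = 0.95 in late lymphomas (rho = 0.96). Col6a1 and Col6a2 had r = 0.53 (rho = 0.48, permutation p = 0.0061, adjusted 0.0070, r = 0.38 without the 2 farthest) and r = 0.87 (rho = 0.80). These genes were read on the same arrays and share their scaling.

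Relations across families were computed too. Col1a2 and Col4a1 had r = 0.61 in early and 0.74 in late lymphomas (rho = 0.51 and 0.68), and Col1a2 and Col6a2 had r = 0.59 in both groups. In early lymphomas both values were above the r = 0.53 of the partners Col6a1 and Col6a2. Col1a2 and the mesenchymal receptor gene Pdgfrb had r = 0.48 in early (permutation p = 0.016, adjusted 0.017) and 0.75 in late lymphomas. Col4a1 and the endothelial cadherin gene Cdh5 had r = 0.79 in early lymphomas (rho = 0.61, permutation p = 1e-05) and r = 0.09 in late lymphomas (rho = 0.25, permutation p = 0.66), and the difference between the groups was not tested.

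The genes that make and handle collagen moved with the chains in early lymphomas against young nodes. The counts below stand beside 27.4% of all probe sets called lower. Of 17 folding and modification genes, 11 fell and 1 rose. Serpinh1, the collagen chaperone Hsp47, fell by 1.51 (SE 0.20), P4ha2, a prolyl hydroxylase subunit, by 1.46 (SE 0.37), Plod1, a lysyl hydroxylase, by 1.43 (SE 0.22) and Plod2 by 1.40 (SE 0.26), and Colgalt1, a collagen galactosyltransferase, rose by 0.46 (SE 0.13). Of 8 processing and cross-linking genes 4 fell, among them Pcolce, an enhancer of procollagen cleavage, by 2.16, and Loxl1, a cross-linking oxidase, by 1.15. Of 7 breakdown genes 4 fell, Mrc2 by 1.25, Mmp2 by 1.16, Mmp14 by 1.09 and Ctsk by 0.99. Of 8 collagen receptors 6 fell, with Ddr2 by 2.23 and Itga1 by 2.07. Of 15 genes of matrix partners 14 fell, with changes of -3.23 for Postn, -2.72 for Dcn, -2.51 for Ogn and -2.42 for Lum.

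In late lymphomas against old nodes fewer of these genes passed, where 11.2% of all probe sets were called lower. The falls were 1 of 17 folding genes (P3h3, by 1.19), 0 of 8 processing genes, 2 of 7 breakdown genes (Mmp14 by 1.44 and Mmp2 by 1.03), 1 of 8 receptors (Ddr2, by 2.11) and 7 of 15 matrix partners. The largest of these changes were -2.72 for Dcn, -2.47 for Fmod, -2.22 for Postn and -2.11 for Prelp, which encode collagen-binding proteins. In old against young nodes, where 0.284% of all probe sets were called lower, 1 of 8 processing genes fell, Loxl1 by 1.14. So did 4 of 15 matrix partners, Sparc by 1.29, Fn1 by 1.26, Lamb1 by 0.94 and Nid1 by 0.70. No folding, breakdown or receptor gene was called. In late against early lymphomas 12.7% of all probe sets were called in either direction, 2704 of the 45037 as higher. Of these lists 2 of 17 folding genes rose, P4hb by 0.44 and Crtap by 0.34. So did 3 of 8 receptors, Lair1 by 0.74, Itgb1 by 0.63 and Itga2 by 0.41. No processing, breakdown or matrix gene was called.

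Markers of the cells that produce collagen, and of other cells, were lower in the same tumours. In early lymphomas against young nodes 27.4% of all probe sets were called lower. There 5 of 5 fibroblast and reticular markers fell, as did 10 of 10 endothelial, 5 of 6 mural and 3 of 3 adipocyte markers. So did 4 of 4 T cell markers (median change -4.58), 4 of 4 pancreas markers (-3.06), 3 of 5 macrophage markers (-1.11) and 1 of 3 salivary markers, but none of the B lineage, epithelial, skeletal muscle, or cartilage and bone markers. The log2 of the summed intensity of the fibroblast markers was 9.50 to 12.87 in early lymphomas, 9.56 to 12.64 in late lymphomas, 12.56 to 12.90 in young and 12.30 to 13.18 in old nodes. That of the endothelial markers was 10.73 to 12.42, 10.93 to 12.67, 14.31 to 14.96 and 14.19 to 14.79, with no overlap between tumours and nodes. In late lymphomas against old nodes 11.2% of all probe sets were called lower. There 3 of 5 fibroblast, 7 of 10 endothelial, 0 of 6 mural and 3 of 3 adipocyte markers fell. So did 4 of 4 T cell markers (median change -3.78) and 1 of 5 macrophage markers. No marker was at 0 on any array. In old against young nodes 0.284% of all probe sets were called lower. There 1 of 5 fibroblast markers and no endothelial, mural or adipocyte marker was called lower. The part of these cells in the collagen values was not tested.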

How the data were processed

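Total RNA of 50 lymphomas and 10 normal tissues was measured on Affymetrix mouse arrays. The authors deposited linear intensities made with MAS5, per the submitters' processing notes; the sources used here give no version, scaling target or detection call. Probe sets were named by the platform's gene annotation, and all 42 gene identifiers were found in the RefSeq gene table. From the intensities, log2(intensity + 15.7) was computed, the constant being the median of the table divided by 10. All 45037 probe sets other than 64 controls were tested with limma 3.58.1 (lmFit, eBayes with trend, R 4.3.3), two-sided, each fit holding only the groups compared, with Benjamini-Hochberg adjustment over all of them and a threshold of 0.05. The constant makes changes at low intensity smaller. The filter on low values, used as an alternative, asked for a level above the array's own median on 10 arrays. Alternatives were pseudocounts 4 times larger and 10 times smaller, that filter, quantile normalization, median centring, RNA ratios as covariates, another choice or the mean of probe sets, 1 fit over all groups, other controls, left-out samples and a replicate block. Correlations were tested with 100000 permutations (scipy 1.17.1).

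Genes were named by rule: in the first 4 comparisons up to 10 called members each way, by size, whose higher group mean lay above the table median, 13 members always, and up to 3 each way in the other fits; beyond members, up to 4 called genes of each list. Col20a1, Col27a1, Col6a5 and Col17a1 and the tumours singled out were named after their values were seen, as were Prdm1 and the old-against-young values of the lists. The members and lists were chosen with earlier results of these data known. Replicate numbers only name arrays: over 6 shared numbers of early lymphomas and young nodes the correlation of deviations was -0.04 to 0.09, none over 0.1. On simulated data with 100 probe sets changed by 1 and 100 by 2 on the log2 scale, 85 and 99 were recovered for early lymphomas against young nodes. The counts were 63 and 91 for late lymphomas against old nodes, 33 and 87 for old against young nodes and 96 and 100 for late against early lymphomas. Every group was drawn as independent normal values with the means and SDs of the early lymphomas, and only brighter probe sets were changed. The real SDs differ between groups, being larger in late than early lymphomas for 68.4% of probe sets. These counts therefore do not give the recovery in the real comparisons. The number of arrays limits the precision. Col28a1 and Col6a6 were not analysed here.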

Additional observations from a re-analysis of the deposited data

Results flagged for a closer look

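Col8a2, a short-chain network gene known from the cornea and vessel walls, was 8.05 in the single spleen, a sample outside the main comparisons that entered only fits with other controls. In the 9 lymph nodes it was at most 6.43, so the spleen lay 1.62 above the highest node. The spleen was above all 9 nodes for 4 of the 42 members, and for 14.0% of all probe sets. In the lymphomas it reached 7.83. The spleen has no replicate and the gene has 1 probe set.

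Among the 6 young nodes 19 named members were examined for a single sample far from the others, and 0 met the criterion.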

How the results depend on the processing

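Of the values of single members under the alternatives, 824 of 840 kept direction and side of the threshold for late against early lymphomas, 382 of 398 for early lymphomas against young nodes, 216 of 254 for late lymphomas against old nodes and 221 of 300 for old against young nodes. The count of members called late against early was 2 with the filter on low values, with quantile normalization, with median centring and in 1 fit over all groups, 0 with the RNA ratios, and 1 to 2 without any 1 lymphoma. For early lymphomas against young nodes it was 17 with a replicate block and without young nodes 1, 2 and 3, and 24 at most; the block lost Col4a5, Col20a1, Col17a1 and Col23a1, and of same-numbered arrays 0 correlated best with their own number. For late lymphomas against old nodes it was 14 with all normal tissues and 1 to 5 without 1 old node, where the calls over all probe sets moved as well. For old against young nodes it was 4 with the mean of all probe sets, 0 with the RNA ratios, in 1 fit over all groups, with the gland levels and without young nodes 1, 2 and 3, 0 to 3 without 1 old node and 2 to 6 without 1 young node; 22 members had an unadjusted p under 0.05. With the probe set of largest variance Col5a3 was 0.57 higher in old nodes (adjusted p = 0.53 in limma), the 1 reversal. The share of higher calls over all probe sets was 37.0% for early lymphomas against young nodes, 54.0% with quantile normalization and 68.0% with centring, and 40.4%, 53.1% and 65.5% for late lymphomas against old nodes. The fits with gland levels, those without young nodes and those without 1 lymphoma were chosen after seeing the data; the cause of these differences was not tested.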

Other observations

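Early lymphomas 3, 11 and 28 shared several collagen values. Col3a1 was 9.68, 10.74 and 9.93 in them, the 3 lowest of the 25 early lymphomas, and Col27a1 was 11.58, 11.08 and 11.08, the 3 highest. Col14a1 was 10.07, 9.91 and 10.11 and Col6a4 8.43, 7.98 and 9.37, against early medians of 8.71 and 6.84. The mucosal vessel address gene Madcam1 was 10.50, 8.71 and 10.12, against an early median of 7.35, and the fat cell gene Adipoq was 5.06, 5.44 and 4.86, against 7.62. In the spleen Col3a1 was 10.49, Col14a1 10.74 and Col6a4 9.02, while Col27a1 was 9.27 there, Col6a1 8.66 (9.86, 9.61 and 10.53 in the 3 tumours) and Col4a1 10.67 (11.20, 12.03 and 12.01). The second probe set of Col3a1 was 6.81, 7.57 and 6.62, against an early median of 8.77, with ranks of 24, 22 and 25 from the highest. That of Col27a1 was 10.38, 10.28 and 9.89, against an early median of 7.66, with ranks of 1, 2 and 5. These tumours were singled out after their values were seen and no test was made.

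The 5 late lymphomas with Col20a1 above every early tumour were also high in other plasma cell genes: Xbp1 was 14.50 to 14.99 (late median 12.54), Jchain 14.73 to 14.84 (late median 11.79) and Sdc1 11.39 to 13.08 (late median 8.62). In old nodes Prdm1 was 9.87 to 10.31 and Jchain 14.66 to 14.96, while Col20a1 was 6.89 to 7.87 there, within or near the 6.99 to 7.87 of young nodes. Of these 5 tumours, 120 and 138 were also among the 3 highest late lymphomas for Col3a1. Tumour 138 had the pancreas gene Ctrb1 at 14.26 and 120 the salivary gene Bpifa2 at 14.80, and their part in these values was not tested.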
